A study of Mus musculus with 6 samples.

Results

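The Esrrb locus was examined as a window of 180 kb on chromosome 12, chr12:87690001-87870000 in the mm9 build. Its limits are fixed coordinates, but the locus was chosen with earlier results of these data known. It holds the gene on the plus strand, from about 87702001 to 87863000, with 12.0 kb before the gene. The window makes up 90 of the 1181189 bins of 2 kb in the nuclear genome that hold at least 1 cytosine listed for either mark, and all 90 hold one. It contains 3501 of the 20807838 nuclear cytosines listed for 5-hydroxymethylcytosine (5hmC) and 1384 of the 6246187 listed for 5-formylcytosine (5fC). The 6 libraries come from E14, an established line of mouse embryonic stem cells, grown on gelatin in GMEM with serum and LIF. The culture at passage 14 gave 2 libraries for each mark, prepared as technical replicates, and the culture at passage 12 gave 2 more for 5hmC only. The deposited tables give 1 pooled read number per listed cytosine for each mark, of at least 2 reads, so replicate error cannot be given for any value. The labels name a single condition, and nothing was tested between conditions. Intervals below are 95% Wilson intervals for shares and exact binomial intervals for ratios of site numbers. They cover counting error only, since neighbouring sites are not independent and reads carry no molecular identifier.

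Esrrb encodes estrogen-related receptor beta, an orphan nuclear receptor that binds DNA without a known natural ligand. In mouse embryonic stem cells it belongs to the network of transcription factors that sustains self-renewal, together with Nanog, Pou5f1 and Sox2, and it is expressed in that state. TET enzymes oxidise 5-methylcytosine to 5hmC and 5hmC further to 5fC, which the glycosylase Tdg removes. A CG dinucleotide reads the same on both strands, so each CG is a dyad with a cytosine on either strand, and the mark can be listed on 1 or on both.

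RefSeq gives Esrrb 2 start sites, each with a sequence of 300 bases, from 250 before to 50 after the start, in the GRCm38.p6 build. The first was placed in mm9 by the listed cytosines themselves. Of all positions on chromosome 12, 1 put at least 10 listed cytosines into the sequence with every listed dinucleotide found on its listed strand. There, 20 of 20 fitted, and the next best position fitted 72.7%. The window lies at chr12:87701817-87702116 on the plus strand, with the first transcribed base at 87702067. Bases without a listed cytosine were not compared with mm9. The second start could not be placed in this way (5 fitting cytosines at most within the locus), and no values are given for it. The 250 bases before the first start are shown because they hold the cytosine with the most 5hmC reads of the whole locus; the capitals mark the 6 CG dyads, each of which was listed for at least 1 mark.

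Esrrb, 250 bases before the first start, chr12:87701817-87702066, plus strand: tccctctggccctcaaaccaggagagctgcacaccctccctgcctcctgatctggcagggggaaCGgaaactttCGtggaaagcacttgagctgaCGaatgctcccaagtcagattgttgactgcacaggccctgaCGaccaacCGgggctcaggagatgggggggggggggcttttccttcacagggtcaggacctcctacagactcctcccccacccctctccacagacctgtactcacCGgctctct

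In the 300 bases around this start, 5fC reads outnumbered 5hmC reads. There were 418 5fC reads at 17 cytosines and 346 5hmC reads at 16, or 1.21 5fC reads per 5hmC read, against 0.387 over the nuclear genome. Among the 804913 tiles of 300 bases in the nuclear genome with at least 100 5hmC reads, 3.52% had at least this ratio. In the locus 3 of 188 such tiles reached it, and the median ratio over the 188 was 0.404. The start and this comparison were picked after the values were seen, so the position of the start in that range is a description.

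Of the 14 cytosines in the 7 CG dyads of the 300 bases, 12 were listed for 5fC and 10 for 5hmC, and all 10 were also among the 12. The plus-strand CG cytosine at 87701912, 155 bases before the start, had 130 5hmC and 57 5fC reads, while its partner on the minus strand had 4 and 25. This dyad was lopsided for 5hmC and less so for 5fC. At 87701961, 106 bases before the start, the plus strand had 23 5hmC and 53 5fC reads. Its minus-strand partner was listed for 5fC alone, with 12 reads. The dyad just after the start was high on both strands for both marks, where the plus-strand cytosine had 36 5hmC and 57 5fC reads and the minus-strand cytosine 39 and 21. The most upstream dyad, 185 bases before the start, was listed on the minus strand for 5fC alone, with 16 reads. Another 8 listed cytosines were outside CG. The deepest of them, a CA on the minus strand 131 bases before the start, had 41 5fC and 5 5hmC reads. For 7 of these 8, a CG dyad listed for either mark lay 20 to 23 bases downstream along their own strand.

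**Figure D1:**
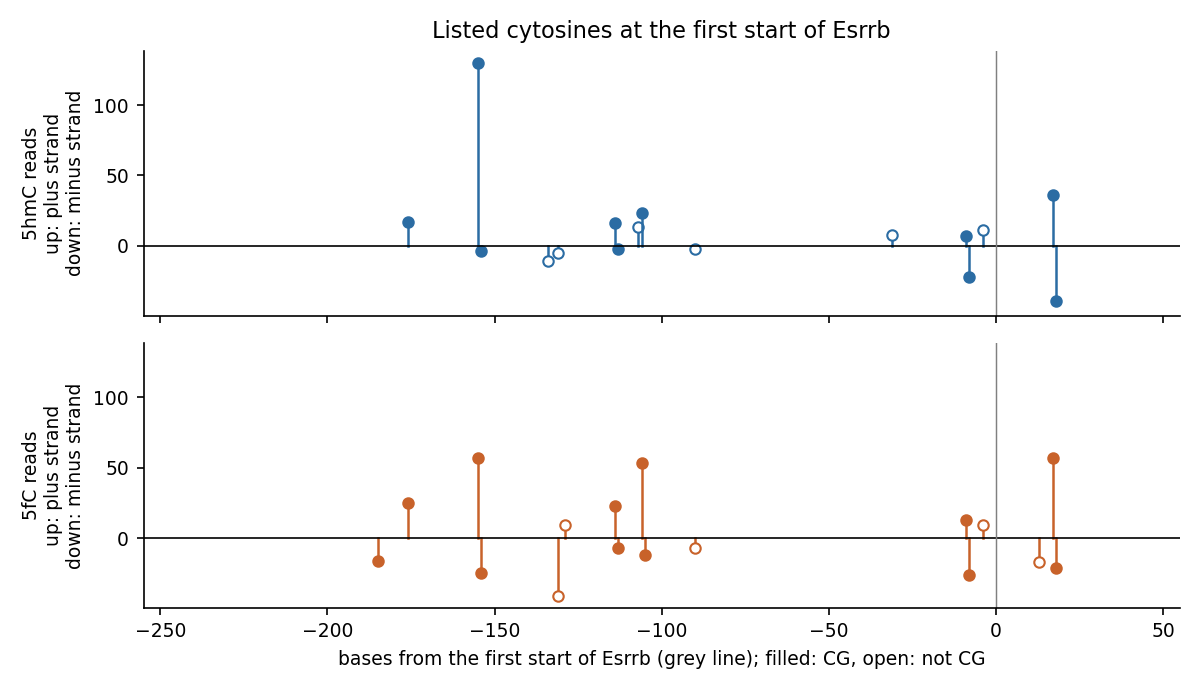
Reads at each listed cytosine within 250 bases before and 50 bases after the first start of Esrrb, for 5hmC (top) and 5fC (bottom), upward for the plus and downward for the minus strand. The highest stem is the 5hmC cytosine with 130 reads, which has 57 reads in the 5fC panel; filled circles are CG cytosines and open circles others.

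Along the locus 5hmC was listed almost throughout and 5fC with more interruptions. The 2 kb bins held between 24 and 1493 5hmC reads, with a median of 470, and between 0 and 974 5fC reads, with a median of 187. No bin lacked both marks, and 1 lacked 5fC, from 87784001 to 87786000, where 6 5hmC cytosines had 57 reads. Of the 90 bins, 49 held at least 2 times the genome-wide mean of 5hmC reads (54.4%, interval 44.2 to 64.3%), against 15.8% of all bins in the nuclear genome. By 5hmC sites 43 bins did so (47.8%, against 14.2%). For 5fC, 46 bins passed by reads (51.1%, against 15.7%) and 49 by sites (54.4%, against 16.5%). In the 500 kb on both sides the corresponding shares were 42.1% and 35.3% for 5hmC reads and sites, and 40.9% and 43.5% for 5fC. The flanks thus also lay well above the genome-wide shares.

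**Figure D2:**
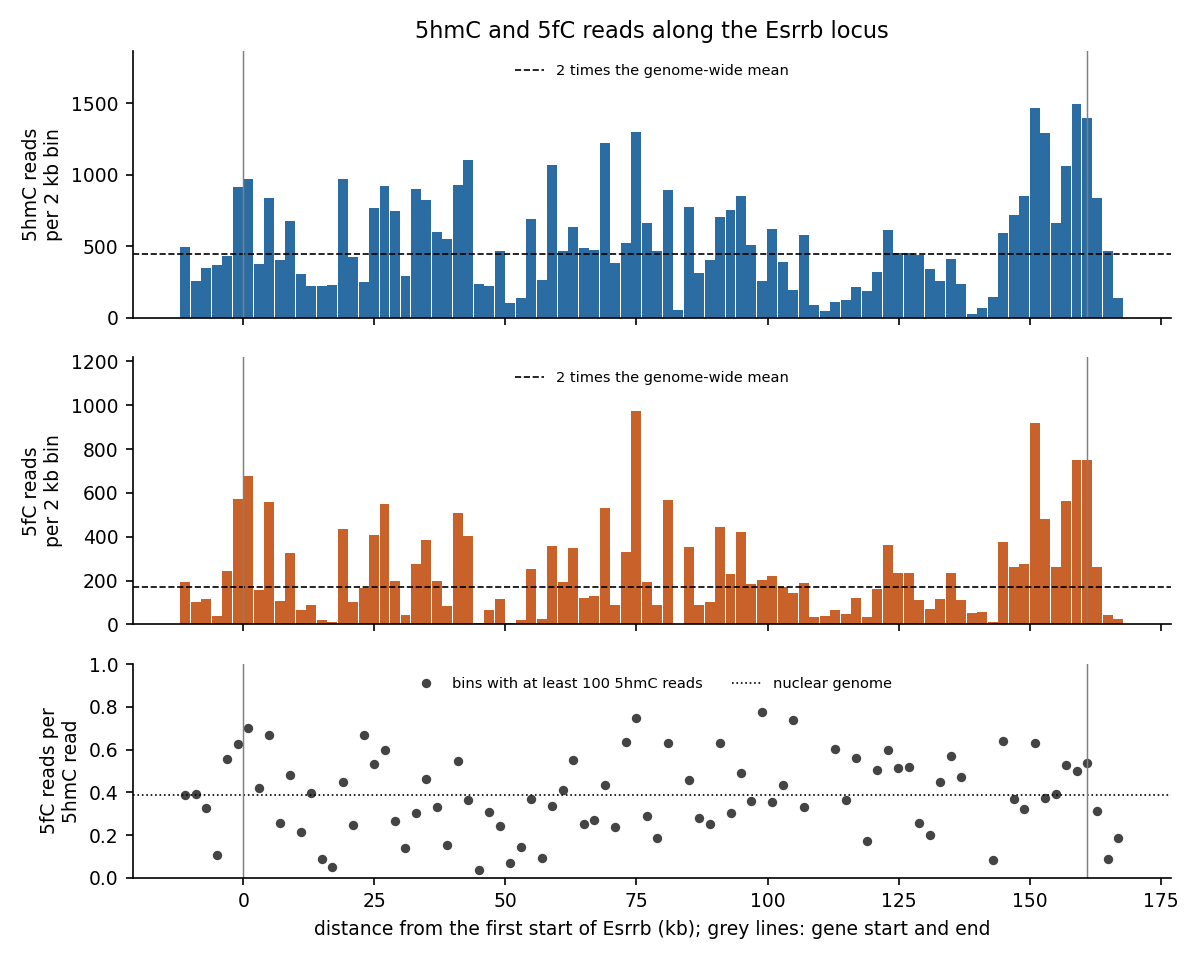
Reads of 5hmC (top) and 5fC (middle) in 2 kb bins along the Esrrb locus and the number of 5fC reads per 5hmC read (bottom), by distance from the first start; grey lines mark the gene and dashed lines 2 times the genome-wide mean. 5hmC peaks near the end of the gene, with 1493 reads in the bin from 87860001, and 5fC in the gene body, with 974 in the bin from 87776001; both are low in the 6 bins from 87810001, about 108 kb after the start.

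The bins with the most 5hmC reads lay together at the 3′ end of the gene. They were 87860001 to 87862000 with 1493 5hmC reads at 76 cytosines, 87852001 to 87854000 with 1463 at 70, and 87862001 to 87864000 with 1393 at 73. The last of these spans the end of the gene. The most 5fC reads, 974 at 55 cytosines, were found in the gene body from 87776001 to 87778000, which had 1300 5hmC reads at 98 cytosines, the most listed cytosines of any bin in the locus. The bins from 87852001 and 87862001 followed, with 921 and 751 5fC reads. In the flanks 1 of 500 bins reached 1493 5hmC reads (maximum 1555), and none reached 974 5fC reads (maximum 965). Between these rich parts lay poor ones. The 6 bins from 87810001 to 87822000 held 49 to 218 5hmC and 32 to 122 5fC reads each. The longest stretch without a listed cytosine of either mark was 1998 bases, from 87839556 to 87841553, and the next was 894 bases, from 87841825 to 87842718. The locus had 1 stretch of at least 1 kb, or 5.56 per Mb, against 24 per Mb in the upstream and 34 in the downstream flank. For 5fC alone the locus had 27 such stretches, 150 per Mb, the longest of 2584 bases, against 228 and 180 per Mb in the upstream and downstream flank.

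**Figure D3:**
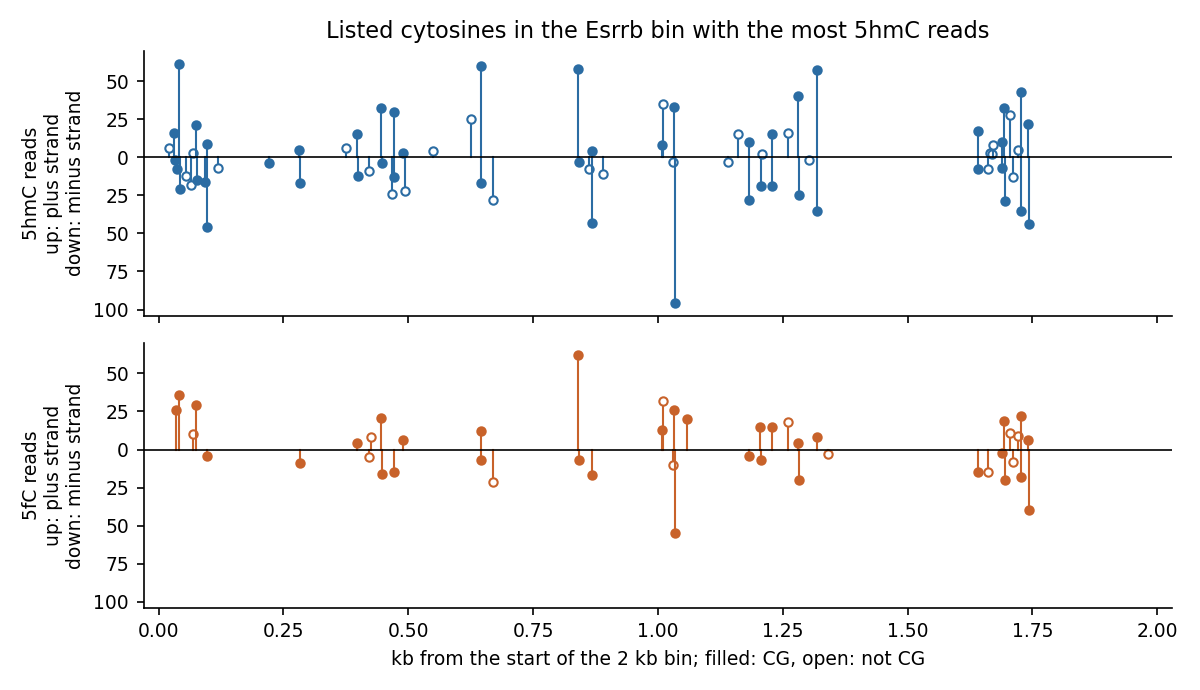
Reads at each listed cytosine of the bin with the most 5hmC reads, 158 kb after the first start, for 5hmC (top) and 5fC (bottom), upward for the plus and downward for the minus strand. The lowest stem of the 5hmC panel is the minus-strand cytosine with 96 reads, which has 55 reads in the 5fC panel; filled circles are CG cytosines and open circles others.

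In that richest bin 28 CG dyads were listed for either mark. Of these, 21 had 5hmC on both strands, 25 had 5fC on at least 1 strand and 9 had 5fC on both. Its sites came in groups separated by short empty stretches, as the plot of reads in this bin shows.

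The number of 5fC reads per 5hmC read varied more between bins than between the locus and its surroundings. Over the 47 bins with at least the median of 470 5hmC reads it ran from 0.0894 to 0.749, with a median of 0.413. The highest values were 0.749 in the 5fC-richest bin from 87776001 and 0.700 in the bin from 87702001, which contains the first start. A bin nearby, from 87706001, followed with 0.668 (557 5fC and 834 5hmC reads). The lowest were 0.0894 from 87866001, past the end of the gene (42 and 470 reads), 0.154 from 87740001 (84 and 547) and 0.187 from 87780001 (88 and 470). The bin from 87780001 begins 4 kb after the start of the 5fC-richest bin. Of the 85 bins with at least 100 5hmC reads, 15 reached 1.5 times the genome-wide ratio (17.6%), close to the 13.9% of all such bins. At or below 1/1.5 times that ratio were 22 (25.9%, interval 17.8 to 36.1%), a lower share than the 42.2% of all such bins. The flanks had 33.5%, inside that interval. Bins of the locus held more 5hmC reads (median 470) than bins genome-wide (median 118). Both medians include bins below 100 5hmC reads, unlike the ratio shares. The part of read numbers in the ratios was not tested.

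Summed over 3 equal sets of the bins ordered by 5hmC sites, 5fC reads per 5hmC read rose with sites, while bin by bin the relation was weak (Spearman 0.26 over the 90 bins). In the 30 bins with 4 to 27 5hmC cytosines the ratio was 0.334, in the 30 with 28 to 45 it was 0.370 and in the 30 with 46 to 98 it was 0.492. Flank bins with the same limits on sites had 0.322, 0.438 and 0.469. Over the 90 bins, 5hmC and 5fC reads were correlated with a Spearman coefficient of 0.90 and a Pearson coefficient of 0.90. Across the 500 flank bins Spearman was 0.87. Bins share libraries, and CG content was not available to set beside these values.

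Single cytosines with many reads were spread over the whole gene, and all of the 5 deepest of each mark were CG. After the 130 reads at 87701912, the 5hmC list had 101 reads at 87745087 on the plus strand and 96 each at 87726594 on the minus, 87743151 on the plus and 87861035 on the minus strand. The same 4 cytosines had 48, 44, 88 and 55 5fC reads. The deepest 5fC cytosine was 87852037 on the minus strand, with 98 5fC and 87 5hmC reads. It was followed by 87776611 and 87807119, both on the plus strand with 96 5fC reads, and with 71 and 53 5hmC reads. Then came 87775076 on the minus strand with 92 5fC and 59 5hmC reads, and 87743151 with 88. Of these 5 cytosines, the first 4 had more 5fC than 5hmC reads, and 87743151 had fewer. Each list was picked by reads of its own mark, which favours that mark. The 5 deepest 5hmC cytosines all had more 5hmC than 5fC reads. The libraries differ in total reads, so an excess in reads is no measure of the share of modified molecules.

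Of the dyads listed on both strands for both marks, the deepest was balanced. At 87801027 the plus and minus cytosines had 71 and 81 5hmC reads and 61 and 71 5fC reads. The next 4 were lopsided, each with more reads on the same strand for both marks. At 87743151 the strands had 96 and 24 5hmC reads and 88 and 36 5fC reads. At 87776611 they had 71 and 25, and 96 and 18. At 87861034 they had 33 and 96, and 26 and 55. The dyad at 87701912 before the first start completed the 5. Dyads with 5hmC on 1 strand could be deep as well. At 87864227 the plus strand had 87 5hmC reads and the minus strand was not listed, while 5fC had 25 and 7 reads on the plus and minus strand. At 87706687, where the plus strand alone had 83 5hmC reads, 5fC had 32 and 23. At 87778978 the minus strand alone had 83 5hmC reads and 5fC had 9 and 18. All 3 were thus listed for 5fC on both strands, including the strand without 5hmC. They were picked for depth and do not stand for their kind. Of all 969 dyads of the locus with 5hmC on 1 strand, 69 had 5fC on both strands and 626 had no 5fC.

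Of the 1703 dyads with 5hmC in the locus, 734 were listed on both strands (43.1%, interval 40.8 to 45.5%), 476 on the plus and 493 on the minus strand alone. The share in the flanks was 45.2% (44.2 to 46.3%), and the intervals overlapped. Of 819 dyads with 5fC, 197 were on both strands (24.1%, 21.3 to 27.1%), 322 on the plus and 300 on the minus strand alone, against 21.9% (20.6 to 23.3%) in the flanks. Neither strand was favoured along this plus-strand gene: 49.6% of 5hmC cytosines (48.0 to 51.3%) and 50.7% of 5fC cytosines (48.1 to 53.4%) lay on the plus strand.

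Pairing across strands rose with reads per dyad, and within single classes of reads the locus mostly overlapped its flanks. The exception was 5hmC at 9 to 16 reads. Of these dyads, 28.0% (23.6 to 32.9%) were on both strands, below the 35.6% (33.5 to 37.7%) of the flanks and the 35.5% of the nuclear genome. At 33 to 64 reads the 5hmC share was 75.7% (70.9 to 80.0%), against 78.6% (76.5 to 80.6%) in the flanks, and at 2 to 4 reads it was 1.19% against 0.773%, with overlapping intervals in both classes. With the nuclear genome's share in each class of reads, the locus would have had 46.3% of 5hmC dyads on both strands, and with that of the flanks 47.1%, both above the 43.1% found. For 5fC the corresponding shares were 20.2% and 21.2%, below the 24.1% found. These weighted shares are descriptions with no interval. At 33 to 64 reads, 67.6% of 5fC dyads (58.3 to 75.7%) were on both strands, against 60.1% (55.7 to 64.3%) in the flanks and 58.1% genome-wide. At 17 to 32 reads it was 33.8% (28.0 to 40.1%), against 29.3% (26.5 to 32.2%) in the flanks and 27.5% genome-wide. In both classes the intervals of locus and flanks overlapped, while the genome-wide share lay below the interval of the locus. In the other classes of 5fC reads the genome-wide share lay inside it. At 5 to 8 reads the order was reversed, with 0.719% of 5fC dyads in the locus and 0.968% in the flanks, again with overlapping intervals.

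**Figure D4:**
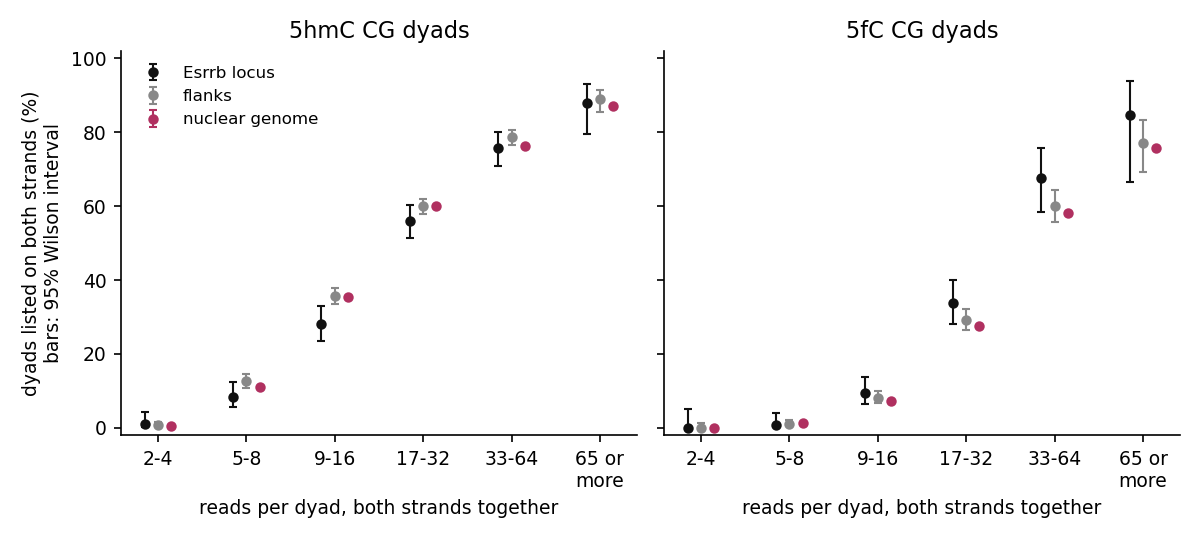
Percent of CG dyads listed on both strands by the number of reads per dyad, for 5hmC (left) and 5fC (right), in the Esrrb locus, its flanks and the nuclear genome, with 95% Wilson intervals. Shares rise with reads from near 0 to 87.8% of 5hmC and 84.6% of 5fC dyads in the locus. The low start is in part fixed by the floor of 2 reads per listed cytosine. The locus lies below the other regions for 5hmC at 9 to 16 reads. Its interval lies above the nuclear genome for 5fC at 17 to 32 and 33 to 64 reads.

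Pairing also varied along the gene. In 9 blocks of 20 kb the share of 5hmC dyads on both strands ran from 25% (18.6 to 32.8%) at 87810001 to 87830000 to 58.5% (52.0 to 64.7%) at 87850001 to 87870000. These were also the blocks with the fewest and the most 5hmC reads, 2621 and 9666. Both extremes lay outside the 33.6 to 54.4% of the 50 flank blocks. Their intervals overlapped those of the lowest flank block (26.1 to 41.9%) and the highest (47.1 to 61.5%), respectively. With the genome's share in each class of reads, the poor block would have had 34.7% and the rich block 57.0%. The rich block was near that value and the poor block below it. For 5fC the rich block reached 34.7% (27.4 to 42.8%), against 23.7% at the genome's share in each class. The highest flank block had 36.1%.

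Most dyads with 5fC also had 5hmC. Of the 1768 dyads listed for either mark, 626 had 5hmC on 1 strand and no 5fC, 323 had 5hmC on both strands and no 5fC, and 65 had 5fC without 5hmC. The last are 7.94% of the dyads with 5fC, against 6.36% in the flanks, 7.48% on chromosome 12 and 7.20% over the nuclear genome. The share of the locus was thus near that of the chromosome and the genome. Both marks were listed on both strands at 123 dyads (6.96%, against 6.62% in the flanks). Dyads with 5hmC on 1 strand were listed for 5fC in 343 of 969 cases (35.4%, 32.4 to 38.5%), above the 30.8% (29.5 to 32.2%) of both flanks together. The downstream flank alone had 32.8% (30.9 to 34.8%), which overlapped the locus, and the second 180 kb window downstream had the same 35.4%. For dyads with 5hmC on both strands it was 411 of 734 (56.0%, 52.4 to 59.5%) against 51.7% (50.1 to 53.3%), with overlapping intervals. In 69 dyads 5fC was listed on both strands and 5hmC on 1 strand, 3.90% of all dyads in the locus and 2.25% in the flanks. The 180 kb windows beside the locus had 1.81, 2.37, 2.06 and 3.25%, from left to right. No interval was computed for these shares.

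Where each mark was listed on 1 strand of a dyad, it was the same strand in 221 of 274 cases (80.7%, 75.6 to 84.9%), against 79.0% in the flanks. In the 123 dyads with all 4 cytosine values, the strand with more 5hmC reads also had more 5fC reads in 86 (69.9%). That share was not computed outside the locus. By cytosine, 81.1% of the 1016 CG cytosines with 5fC (78.6 to 83.4%) were listed for 5hmC at the identical cytosine, below the 84.0% (82.8 to 85.0%) of the flanks, with overlapping intervals. In the other direction 30.2% of 5hmC cytosines (28.7 to 31.8%) were also in the 5fC list. This was above the 25.9% of the upstream flank, and its interval overlapped that of the downstream flank (29.0%, interval 28.0 to 30.0%). The 1059 cytosines in both lists had a median of 16 5hmC and 14 5fC reads. The 2442 listed for 5hmC alone had a median of 8, and the 325 listed for 5fC alone a median of 10. At 416 of the shared cytosines (39.3%) 5fC had more reads than 5hmC. These medians and this share were not computed outside the locus either, so they describe no trait particular to it.

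For 5hmC, a larger share of listed cytosines lay outside CG than in both flanks together. CG made up 69.6% of 5hmC cytosines (68.1 to 71.1%) in the locus, 73.9% (73.2 to 74.5%) in the flanks and 76.5% genome-wide. The second 180 kb window downstream had 70.4% (68.8 to 72.1%), which overlapped the locus. For 5fC it was 73.4% (71.0 to 75.7%), against 75.7% (74.6 to 76.8%) in the flanks, with overlapping intervals. The 1064 non-CG cytosines with 5hmC were 484 CA, 342 CT and 238 CC, and the 368 with 5fC were 181 CA, 117 CT and 70 CC. CG took 83.1% of 5hmC reads, more than its share of cytosines, and 76.8% of 5fC reads, close to its share of cytosines. Of the 5hmC cytosines with 2 to 4 reads, 46.2% (42.7 to 49.7%) were CG, and of those with 65 or more, 97.6% (87.7 to 99.6%). For 5fC the CG share was nearly flat at low reads, with 71.8% at 2 to 4, 71.2% at 5 to 8 and 70.6% at 9 to 16 reads, and reached 82.5% at 33 to 64. A CG dyad of the same list lay 20 to 23 bases downstream for 70.3% of the non-CG cytosines with 5hmC (67.5 to 73.0%) and 63.9% of those with 5fC (58.8 to 68.6%). In the flanks the shares were 68.8% (67.4 to 70.2%) and 64.5% (62.0 to 67.0%).

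Both marks were denser in the locus than in both flanks together, though some stretches of the flanks were as dense. There were 19.4 5hmC cytosines per kb, against 16.6 in the upstream and 16.0 in the downstream flank of 500 kb, a ratio to both flanks of 1.19 (1.15 to 1.24). For 5fC the locus had 7.69 per kb, against 5.50 and 5.996, a ratio of 1.34 (1.26 to 1.42). Outside CG the ratios were 1.39 (1.30 to 1.48) for 5hmC and 1.46 (1.30 to 1.64) for 5fC, against 1.12 (1.08 to 1.17) and 1.30 (1.21 to 1.39) at CG. The 100 kb just upstream had 19.02 5hmC cytosines per kb, and at CG 13.8 per kb, against 13.5 in the locus. The second 180 kb window upstream had 14.1 at CG. For 5fC those stretches had 6.27 and 6.47 cytosines per kb, below the 7.69 of the locus. Shorter parts of the upstream flank were richer in 5fC. Its 20 kb blocks from 87410001 and 87490001 held 193 and 200 5fC cytosines, against a median of 149 and a maximum of 271 in the blocks of the locus. The flanks were themselves dense, and the locus stood 2.47 times above the nuclear genome for 5hmC cytosines and 3.25 times for 5fC. Among 13299 autosomal windows of 180 kb it ranked at the 95.1 percentile by 5hmC sites and at the 95.2 percentile by 5fC sites.

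The windows of 180 kb next to the locus, 2 on each side, held 3449 and 3097 5hmC cytosines upstream and 2710 and 2932 downstream, from left to right along the chromosome. The 3501 of the locus lay close to the highest of them. For 5fC they held 1164, 1046, 852 and 1185 cytosines, all below the 1384 of the locus. The protein-coding genes next to Esrrb in RefSeq are Gpatch2l before it and Vash1 after it.

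The locus held 0.434 5fC reads per 5hmC read, between the 0.406 of the upstream and the 0.439 of the downstream flank, so the ratio to both flanks together was 1.03. The 4 neighbouring windows had 0.405, 0.404, 0.361 and 0.464, and the locus fell inside that range. It was 1.12 times the nuclear genome's ratio, at the 73.8 percentile of 6650 autosomal windows with at least the median of 5hmC reads. With the flanks shortened to 100 kb on each side the ratio to them was 1.19. By sites, the locus had 0.395 5fC cytosines per 5hmC cytosine, above both flanks (0.331 and 0.375).

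**Figure D5:**
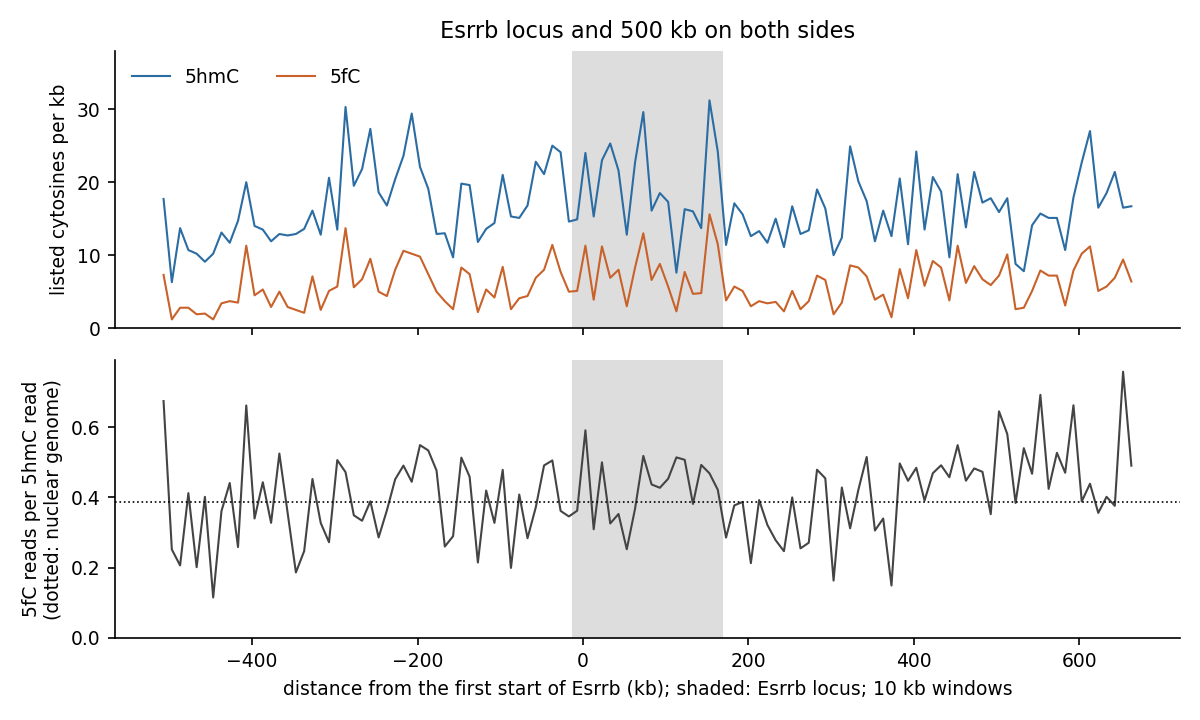
Listed cytosines per kb of 5hmC and 5fC (top) and 5fC reads per 5hmC read (bottom) in 10 kb windows over the Esrrb locus (shaded) and 500 kb on both sides. The highest windows of both marks, 31.2 and 15.6 cytosines per kb, lie in the locus, while its ratio, between 0.252 and 0.591, stays inside the 0.115 to 0.758 of the flanks.

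Dense groups of dyads were more frequent in the locus than in both flanks together. With neighbouring dyads at most 100 bases apart and at least 10 dyads in a group, there were 30 groups, 167 per Mb, against 95 per Mb in the flanks. They held 22.6% of the dyads of the locus and 14.9% of those of the flanks. The largest group of the flanks held 36 dyads. The 100 kb just upstream and the second 180 kb window upstream had 9.55 and 9.62 5hmC dyads per kb, against 9.46 in the locus. Groups were not counted separately in those stretches, nor over the nuclear genome. Reads of groups were counted at CG cytosines alone, whereas the ratios of bins and windows took all listed cytosines. In the locus the group with the most dyads, 20 in 693 bases, lay at 87862303 to 87862995, at the end of the gene, with 679 5hmC and 316 5fC reads. A group of 19 dyads at 87855307 to 87855648 had 467 5hmC but 108 5fC reads, 0.231 per 5hmC read. The groups richest in 5fC were those at 87835706 to 87836090 (1.17 per 5hmC read), 87701881 to 87702195 across the first start (1.11) and 87776606 to 87777008 (1.03). These groups were defined and picked after the values were seen, and the other 27 had ratios between 0.181 and 0.770.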

How the data were processed

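DNA of E14 cells was profiled by Pvu-Seal-seq, in which PvuRts1I cuts beside modified cytosines and tagged fragments are captured, per the labels' protocols. The authors used CASAVA, bcl2fastq, cutadapt and Bowtie with the mm9 build, per the submitters' processing notes. The deposited values are raw read counts per cytosine, pooled over libraries; the libraries summed and the rule for listing sites were not given in the sources used here. The protocol given for the 5fC libraries describes the 5hmC preparation alone, so how 5fC was told from 5hmC, and how reads of the 2 marks compare in efficiency, is unknown here.

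Positions were written 1-based. Cytosines were counted in the window, its flanks, 2 kb bins, 20 kb blocks and CG dyads. Listed sites with their dinucleotides placed a RefSeq promoter sequence (GRCm38.p6) in mm9. No mm9 genome or annotation was used, so exons, introns and CG content were not analysed here. The planned settings were bins, flanks, dyads and overlap; tiles, dense groups, 180 kb windows, read-class weighting and the promoter were added after the data were seen. The locus and lists were chosen with earlier results of these data known. Bins named are the 3 with the most reads of each mark and the 3 highest and lowest ratios among bins with at least the median 5hmC reads; cytosines and dyads named are the deepest 5, and the deepest 3 dyads with 5hmC on 1 strand. The locus holds 48970 5hmC and 21267 5fC reads. Counting functions passed 5 of 5 checks on simulated data. Python 3.11.15, numpy 2.4.6, pandas 2.3.3 and scipy 1.17.1 were used.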

Additional observations from a re-analysis of the deposited data

How the results depend on the processing

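No paired analysis was possible because each listed cytosine has 1 pooled number of reads, and leaving out a library was not possible either. Of 61 values recomputed under other settings, 35 stayed within the interval of the reported value or, in 1 case without an interval, rounded to the same value, and the cause of the other moves was not tested. Density against the flanks stayed above 1 for both marks in all settings: for 5hmC it moved to 1.26 with at least 10 reads per site, 1.12 at CG and 1.39 outside CG, and for 5fC to 1.52 with flanks of 100 kb and 1.46 outside CG. The ratio of 5fC to 5hmC reads against the flanks has no interval. It was 1.02 with at least 5 reads per site, 1.04 with the gene's own limits, 1.04 without sites above 100 reads, 1.07 against the upstream flank and 1.19 with flanks of 100 kb, and it turned to 1.00 (0.9997) with at least 10 reads, 0.989 against the downstream flank and 0.939 outside CG. The share of 5hmC dyads on both strands was 37.0% with at least 5 reads per site, 26.1% with at least 10 and 35.8% with 5hmC thinned to the 5fC total; for 5fC dyads it was 15.8% with at least 10. The share of 5fC CG cytosines with 5hmC was 77.1% with at least 5 reads, 70.9% with at least 10, 75.0% after thinning, 92.1% by either strand and 63.9% outside CG. Bins of 1 kb put 43.6% past 2 times the mean of 5hmC reads, against 15.6% of all such bins. In 5 kb bins 69.4% passed by 5fC sites (16.7% of all bins) and 11.8% were at the lower ratio limit (32.7%). At the upper ratio limit the order turned: 5.88% of 5 kb bins in the locus against 10.5% of all, where 2 kb bins had 17.6% against 13.9%. The number of reads limits how well shares of single bins and blocks are known.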
